A study of Mus musculus with 12 samples.

Results

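Monocarboxylate transporters carry lactate, pyruvate and related small acids across cell membranes, and 9 of their genes were examined in TM3 cells: 8 members of the Slc16 family and the sodium-coupled carrier Slc5a8. They were chosen by name, with earlier results of these data known. Of the 41174 probes on the array, 14 measured them, among 15972 genes that could be named. The scanner output lists accessions in place of symbols, so each probe was named through RefSeq's gene table. Slc16a1 had 3 probes, Slc16a4, Slc16a6 and Slc16a10 had 2 each, and the other genes had 1 probe.

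TM3 is an established Leydig cell line derived from the testis of immature mice, so the data describe 1 line in culture. MAA, or methoxyacetic acid, is the active metabolite of an industrial glycol ether and is itself a small monocarboxylic acid. Cultures were exposed to 5 mM or 1 mM MAA and harvested at 3, 8 and 24 h, with untreated cultures of the same line at each time as the control. Each of the 6 conditions was measured on 2 dual-colour arrays, each with its own pool of RNA from 3 cultures and with the dyes exchanged between them. MAA RNA was in the Alexa 555 channel on replicate 1 and in the Alexa 647 channel on replicate 2. Whether the 5 mM and 1 mM arrays of a time used the same control RNA was not given in the sources used here. Values come from whole cultures, in which fewer cells expressing a gene and less RNA per cell cannot be told apart.

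Log2 ratios of MAA to control correlated across all probes between the 2 arrays of a condition with r of 0.496 to 0.644 at 5 mM. At 1 mM r was -0.13 to 0.309, the lowest being 1 mM for 3 h. Since r also falls where changes are small, and the 2 arrays differ in dye orientation, it does not measure repeatability alone. Between 61.5% and 70.4% of probes were well above background in a channel. The 12 arrays lay on 3 slides, each array comparing MAA with control within its slide, and the number of arrays limits the precision. Of 8 Leydig cell markers, 3 (Star, Cyp17a1 and Insl3) were well above background in all 12 control channels, whereas Lhcgr, Cyp11a1 and Hsd3b1 were in none. Sox9 and Rhox5 of 5 Sertoli cell markers, Ddx4, Prm1 and Tnp1 of 5 germ cell markers and Acta2 and Cnn1 of 4 peritubular myoid cell markers were also above background in all 12, and neither measured macrophage marker was in any. The part of other cell types in the values below was not tested.

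Slc16 proteins of the lactate group move lactate or pyruvate together with a proton, in the direction set by the gradients, and need the glycoproteins basigin (Bsg) or embigin (Emb) to reach the cell surface. Other members of the family carry aromatic amino acids or thyroid hormones, or have substrates that are less well known. In the testis, lactate made by Sertoli cells is a main fuel of developing germ cells, and transporters of this family carry it between the cells.

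RefSeq's promoter table for GRCm38.p6 held 6 of the 9 genes, as 250 bases before and 50 after a start site. Slc16a6, Slc16a7 and Slc16a13 had no entry. The promoters of the 4 genes on which the MAA results turn are shown 5′ to 3′ on the gene's strand, with capitals for a GC box (GGGCGG), an EGR motif (GCGNGGGCG), a CRE (TGACGTCA) or a TATA box (TATAAA), each searched on both strands.
Slc16a1, chr3:104638414-104638713, plus strand: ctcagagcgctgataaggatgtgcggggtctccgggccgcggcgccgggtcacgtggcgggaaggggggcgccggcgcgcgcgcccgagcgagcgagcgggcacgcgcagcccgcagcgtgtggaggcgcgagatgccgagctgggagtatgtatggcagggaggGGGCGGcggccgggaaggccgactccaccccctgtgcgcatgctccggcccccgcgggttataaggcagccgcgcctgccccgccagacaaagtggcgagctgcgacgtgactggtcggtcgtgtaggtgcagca
Slc16a4, chr3:107290980-107291279, plus strand: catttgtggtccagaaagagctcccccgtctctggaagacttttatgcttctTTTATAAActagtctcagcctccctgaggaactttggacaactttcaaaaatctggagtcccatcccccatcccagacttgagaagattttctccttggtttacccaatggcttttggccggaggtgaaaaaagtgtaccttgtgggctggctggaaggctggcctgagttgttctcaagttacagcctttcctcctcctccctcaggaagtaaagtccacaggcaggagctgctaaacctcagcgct
Slc16a10, chr10:40142205-40142504, minus strand: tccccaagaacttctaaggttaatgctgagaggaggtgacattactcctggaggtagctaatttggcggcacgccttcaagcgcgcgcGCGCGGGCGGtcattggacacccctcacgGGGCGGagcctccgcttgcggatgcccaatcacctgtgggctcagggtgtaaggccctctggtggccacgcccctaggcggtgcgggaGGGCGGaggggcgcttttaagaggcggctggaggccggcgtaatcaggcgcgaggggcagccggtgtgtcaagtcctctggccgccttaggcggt
Slc5a8, chr10:88885742-88886041, plus strand: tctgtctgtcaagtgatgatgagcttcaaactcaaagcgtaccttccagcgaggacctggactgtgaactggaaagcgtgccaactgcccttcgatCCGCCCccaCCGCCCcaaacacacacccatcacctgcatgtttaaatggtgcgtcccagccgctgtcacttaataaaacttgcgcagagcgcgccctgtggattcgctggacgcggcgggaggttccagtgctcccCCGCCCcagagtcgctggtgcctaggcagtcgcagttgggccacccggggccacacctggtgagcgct
A GC box stood in 5 of the 6 member promoters and in 35.7% of all 32851 promoters in the table. The exception was Slc16a4, whose capitals are 2 overlapping TATA box matches on opposite strands and whose window held 49.3% G and C and 3 CG pairs. The other 5 windows held 60.7% to 73.7% G and C and 20 to 42 CG pairs. The EGR motif, present in 5.55% of all promoters, occurred in the Slc16a10 promoter, where it overlaps the first of 3 GC boxes. No member promoter held the CRE, which 1.79% of all promoters did, and a TATA box match was found in 13.6% of all promoters. A match says only that these letters are in the window.

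Expression in cells without MAA was read from the 12 control channels. Of the 9 genes, 6 were well above background in all 12 by at least 1 probe: Slc16a1 by 3 probes, Slc16a4 by 2 and Slc16a3, Slc16a6, Slc16a9 and Slc16a13 by 1 each, 9 probes in all. The probes for Slc16a7, Slc16a10 and Slc5a8 were above background in 0 of 12 control channels, as was the other Slc16a6 probe. Slc16a7 encodes MCT2, a high-affinity pyruvate and lactate carrier, and its probe was above background in 0 of 12 MAA channels too. A probe that is not above background gives only an upper limit on its transcript. Signals below are on a common scale for all channels, in arbitrary units, and each is compared only with other values of the same probe.

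Several members changed level with time in culture medium alone. Slc16a4, which encodes a family member (MCT5) whose substrate is not settled, had control signals of 568, 755, 578 and 731 at 3 h, of 2195, 2421, 2166 and 2480 at 8 h and of 9040, 10325, 8913 and 10099 at 24 h by probe A_51_P340653. The times did not overlap, and the mean signal at 24 h was 14.7-fold that at 3 h. Probe A_52_P598885 rose from 277 to 324 at 3 h, through 1052 to 1194 at 8 h, to 5485 to 5936 at 24 h, a 19.3-fold difference. Of 24114 probes above background in all 8 control channels of both times, 0.319% had separate ranges and means over 8-fold apart, a size chosen after the Slc16a4 values were seen. All 9 member probes that were above background had separate 3 h and 24 h control ranges, as did 70.1% of those 24114 probes. Between 3 and 8 h this held for 8 of the 9 and 56.4% of all such probes, and between 8 and 24 h for 7 of the 9 and 57.9%, so separation alone says little about the transporters.

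Slc16a6 went the other way. Its control signals, by probe A_51_P432180, were 167, 162, 169 and 161 at 3 h, 43.1, 44.2, 48.4 and 47.5 at 8 h, and 52.1, 52.5, 57.5 and 57.4 at 24 h. The 3 h values lay above all others, 3.60-fold over the 8 h mean. Slc16a3, which encodes MCT4, the lactate exporter of glycolytic cells, read 1574 to 1729 at 3 h against 2748 to 3035 at 8 h and 2728 to 2896 at 24 h. Slc16a13, a little-studied family member, had 63.5 to 69.9 at 3 h and 38.1 to 42.5 at 8 h. The 3 probes of Slc16a1 were 1.41-fold to 1.70-fold higher at 24 h than at 3 h, without overlap. Slc16a9, which encodes a carnitine carrier, ran from 19.5 to 34.6 at 3 h to 55.7 to 87.0 at 24 h. These are descriptions of 4 control channels at each time and were not tested, since the channels may share RNA. The 8 h arrays lay on slides 2 and 3 only, and those of 3 and 24 h on slides 1, 2 and 3. The part of the slide in the differences from 8 h was not tested.

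**Figure D1:**
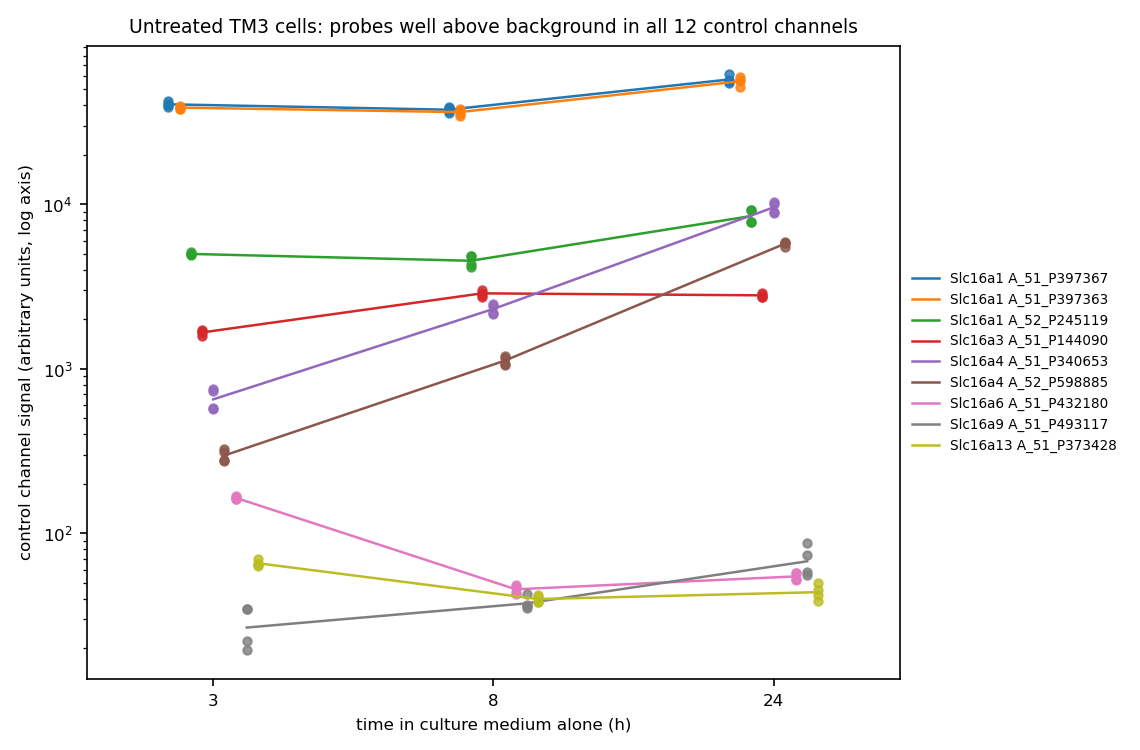
Control channel signals (log axis, arbitrary units) of the 9 member probes well above background in all 12 control channels, against time in culture medium alone (4 points a time, lines through the geometric means). Slc16a4 rises at both probes, 14.7-fold and 19.3-fold between 3 and 24 h, and Slc16a6 is highest at 3 h, while the heights of different probes are not comparable.

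The effect of MAA was tested with limma on the log2 ratio of MAA to control, and a probe was called where p was below 0.005 and the change exceeded 2-fold (5 mM) or 1.5-fold (1 mM). At 5 mM, 0 of the 14 member probes were called at 3 h, 2 at 8 h and 2 at 24 h, where 3.76%, 5.55% and 5.62% of all probes were. Over the 3 times 3 of the 14 probes were called, beside 10.1% of all probes. Slc16a4 fell at 8 h, Slc16a10 rose at 8 and 24 h, and Slc5a8 rose at 24 h. At 3 h, 7 member probes had an unadjusted p under 0.05, as did 32.9% of all probes. An adjusted p under 0.05, without a threshold on the fold, was reached by 3, 7 and 3 member probes at 3, 8 and 24 h, beside 24%, 30.4% and 30.4% of all probes. The median log2 ratio of the 14 probes was -0.06, 0.21 and -0.01 at the 3 times, beside -0.10, -0.04 and 0.03 for all probes. The responses differed in direction from gene to gene.

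**Figure D2:**
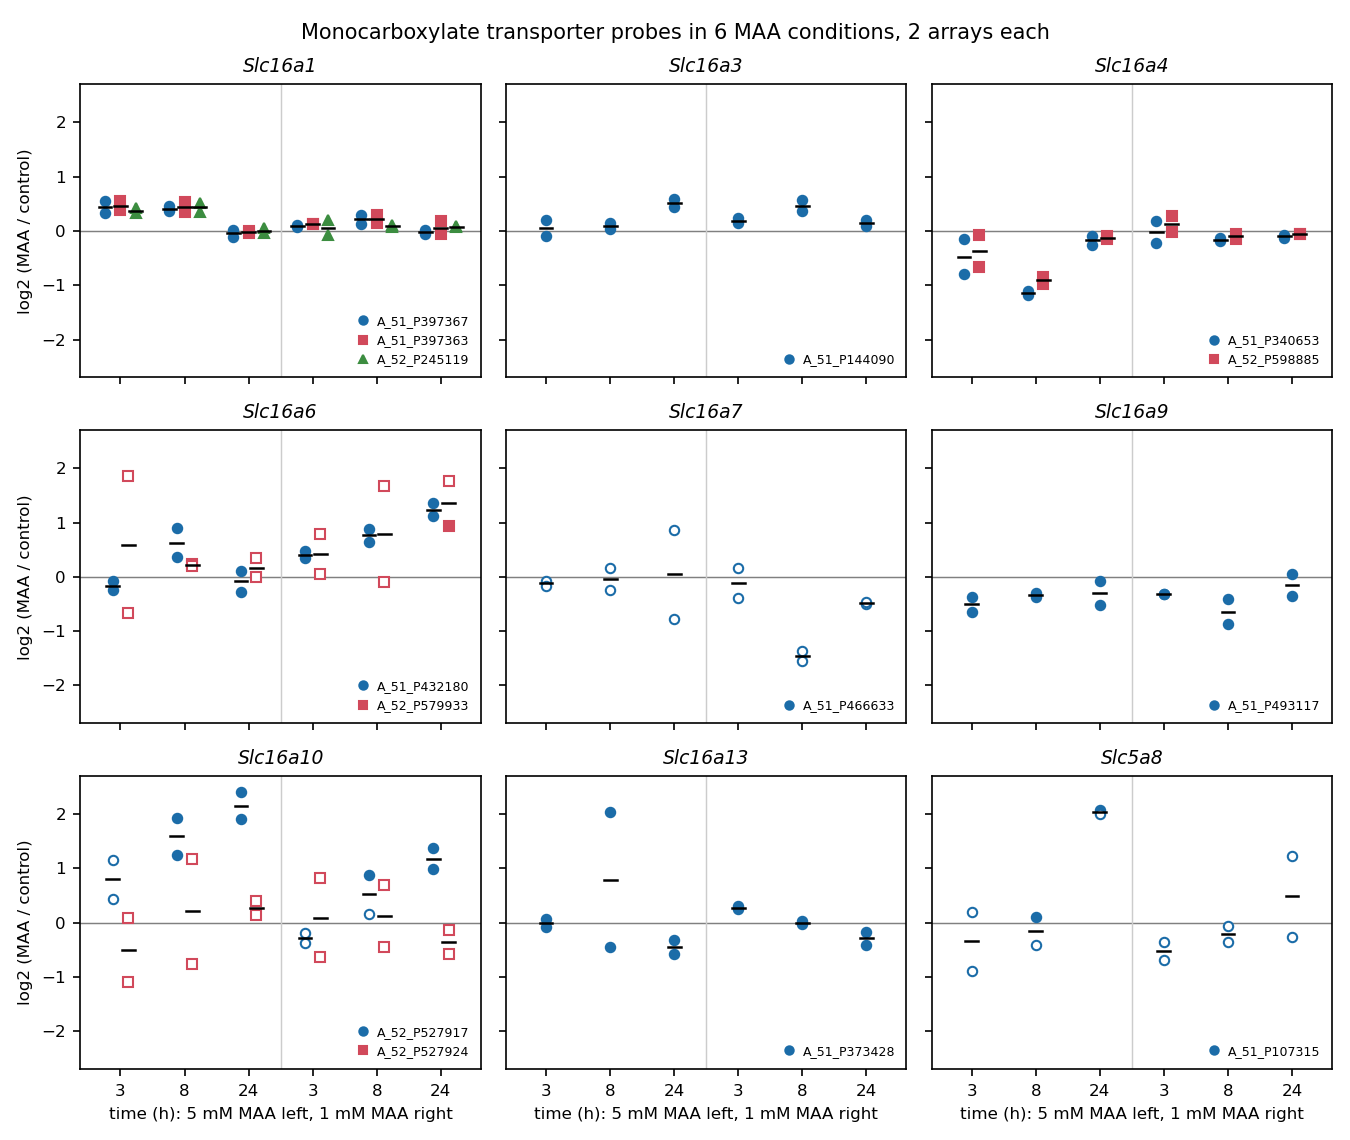
Log2 ratio of MAA to control for each probe of the 9 genes in the 6 conditions (each symbol is 1 array, bars are the means of 2 arrays, colours and shapes are probes, and open symbols are arrays on which neither channel was well above background). Slc16a4 is lowest at 5 mM for 8 h, and Slc16a10 (probe A_52_P527917) and Slc5a8 are highest at 5 mM for 24 h.

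Among the lactate carriers, Slc16a1 rose modestly at the early times at all 3 of its probes. It encodes MCT1, the most widely expressed carrier of lactate, pyruvate and ketone bodies. At 5 mM for 3 h the arrays gave log2 ratios of 0.56 and 0.34 at probe A_51_P397367, 0.55 and 0.39 at A_51_P397363, and 0.33 and 0.42 at A_52_P245119. The means were 0.45, 0.47 and 0.38, or 1.30-fold to 1.38-fold higher with MAA, with adjusted p between 0.00445 and 0.0122. At 8 h the means were 0.41, 0.44 and 0.43, with adjusted p between 0.00498 and 0.00518. None of the probes passed 2-fold, and every single-array value at these times was above 0. By 24 h the means lay between -0.04 and 0.00. The change from 3 to 24 h was -0.49 (SE 0.11, adjusted p = 0.0224) and -0.49 (SE 0.12, adjusted p = 0.0295) at the first 2 probes and -0.37 (adjusted p = 0.0698) at A_52_P245119. From 8 to 24 h it passed only at A_51_P397367 (-0.45, SE 0.11, adjusted p = 0.0446), and 5.1%, 8.91% and 15.8% of all probes passed the 8 against 3 h, 24 against 8 h and 24 against 3 h contrasts. Without 5 mM 3 h replicate 1, the 3 h adjusted p of the 3 probes was 0.0629 to 0.0760, without 5 mM 3 h replicate 2 that of A_52_P245119 was 0.135, and without 5 mM 8 h replicate 1 the 8 h values were 0.0751 to 0.0858. The change from 8 to 24 h lost significance in 10 of the 12 fits that each left out an array and with median centring (adjusted p = 0.224), and the changes from 3 to 24 h in 3 and 4 of them, all without a 5 mM 3 h or 24 h array, and also with median centring (adjusted p = 0.0514 and 0.0784). At 1 mM the Slc16a1 means ran from -0.02 to 0.22 and none had an adjusted p under 0.05.

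Slc16a3 had its highest 5 mM ratio at 24 h, although the difference of 24 h from 8 h (0.42, adjusted p = 0.105) and from 3 h (0.46, adjusted p = 0.0563) did not pass. Its arrays at 5 mM for 24 h gave log2 ratios of 0.58 and 0.45, a mean of 0.51 (SE 0.09, adjusted p = 0.00465), which is 1.43-fold and short of the 2-fold threshold. Its 5 mM means at 3 and 8 h were 0.06 and 0.10. At 1 mM for 8 h the arrays gave 0.57 and 0.36, with a mean of 0.47 (adjusted p = 0.0328). The 5 mM value stayed above 0 on either array alone, but its adjusted p was 0.0760 without 5 mM 24 h replicate 1, and that at 1 mM was above 0.05 when any of 10 of the 12 arrays was left out. The third carrier of this group, Slc16a7, was called lower at 1 mM for 8 h with ratios of -1.56 and -1.37, but neither channel was above background on either array, so no fold is given.

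Slc16a4 was the member called lower at 5 mM. At 5 mM for 8 h, probe A_51_P340653 read 1026 and 1065 in the MAA channels against 2195 and 2421 in the controls, log2 ratios of -1.10 and -1.18. The MAA values lay below both control values on each array, and the mean was -1.14 (SE 0.15, adjusted p = 0.00100), or 2.21-fold lower. Probe A_52_P598885 gave -0.98 and -0.84, a mean of -0.91 (SE 0.13, adjusted p = 0.00152), 1.88-fold lower and so short of the fold threshold. At 3 h the pair of arrays differed, with -0.14 and -0.80 at the one probe and -0.08 and -0.67 at the other (adjusted p = 0.0631 and 0.0877). At 24 h the means were -0.17 and -0.12, while signals had climbed to 8440 and 8685 with MAA and 9040 and 10325 without by A_51_P340653. The difference of 24 h from 8 h was 0.97 (SE 0.22, adjusted p = 0.0347) and 0.79 (SE 0.19, adjusted p = 0.0427) at the probes. It lost significance in 8 and 10 of the 12 fits that each left out an array, with adjusted p up to 0.168 and 0.194, the exceptions being the 5 mM 3 h arrays at both probes and the 1 mM 3 h arrays at A_51_P340653. In the medium-only cultures the same transcript was rising over these hours, so the lower 8 h signal with MAA still exceeded the 3 h control signal.

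Slc16a10, which encodes TAT1 (MCT10), a carrier of aromatic amino acids and thyroid hormone, rose with MAA at probe A_52_P527917. Its MAA signals at 5 mM were 8.37 and 12.3 at 3 h, 11.2 and 18.3 at 8 h and 24.5 and 28.7 at 24 h, beside control signals of 4.64 to 7.62 on the same arrays. Every MAA value was above both control values of its condition, although 1 control channel of another condition, 1 mM for 3 h, read 13.6. The log2 ratios were 0.44 and 1.16, then 1.25 and 1.92, then 2.40 and 1.91. The means at 8 and 24 h were 1.59 (SE 0.26, adjusted p = 0.00248) and 2.16 (SE 0.26, adjusted p = 0.000624), and that at 3 h was 0.80 (adjusted p = 0.0607). Since the control was never above background, its signal was raised to the lowest among probes well above background on the array where below that. Against this level the rise was at least 1.29-fold at 8 h and at least 3.15-fold at 24 h, with both MAA channels above background. Channels not well above background can read above that level, so "at least" marks an approximate limit here and below. The 8 h call was lost without 5 mM 8 h replicate 2 (1.25, adjusted p = 0.0487, unadjusted p no longer below 0.005). Probe A_52_P527924 of the same gene had means of -0.50, 0.20 and 0.27. It was above background in no channel, so it neither bears out nor contradicts the rise, which rests on 1 probe.

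Slc5a8 encodes the sodium-coupled carrier of lactate, pyruvate and short-chain fatty acids. At 5 mM for 24 h its MAA signals were 15.6 and 13.4 against control signals of 3.72 and 3.34. Both MAA values were above both controls, with log2 ratios of 2.07 and 2.00 and a mean of 2.03 (SE 0.36, adjusted p = 0.00417). The MAA channel was above background on 1 of the 2 arrays and the control on neither. By the same measure the rise was at least 1.71-fold, from a mean that includes the dim MAA channel. At 3 and 8 h the means were -0.34 and -0.16 with control signals of 5.96 to 13.5, none above background, so the size of a difference between times is not given. The 24 h controls were its lowest at 5 mM, and the 24 h MAA signals were above the other 4 MAA signals at 5 mM (6.85 to 12.5). The call was lost without either 5 mM 24 h array, through the unadjusted p (2.00 and adjusted p = 0.0530 without replicate 1, 2.07 and adjusted p = 0.0474 without replicate 2).

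**Figure D3:**
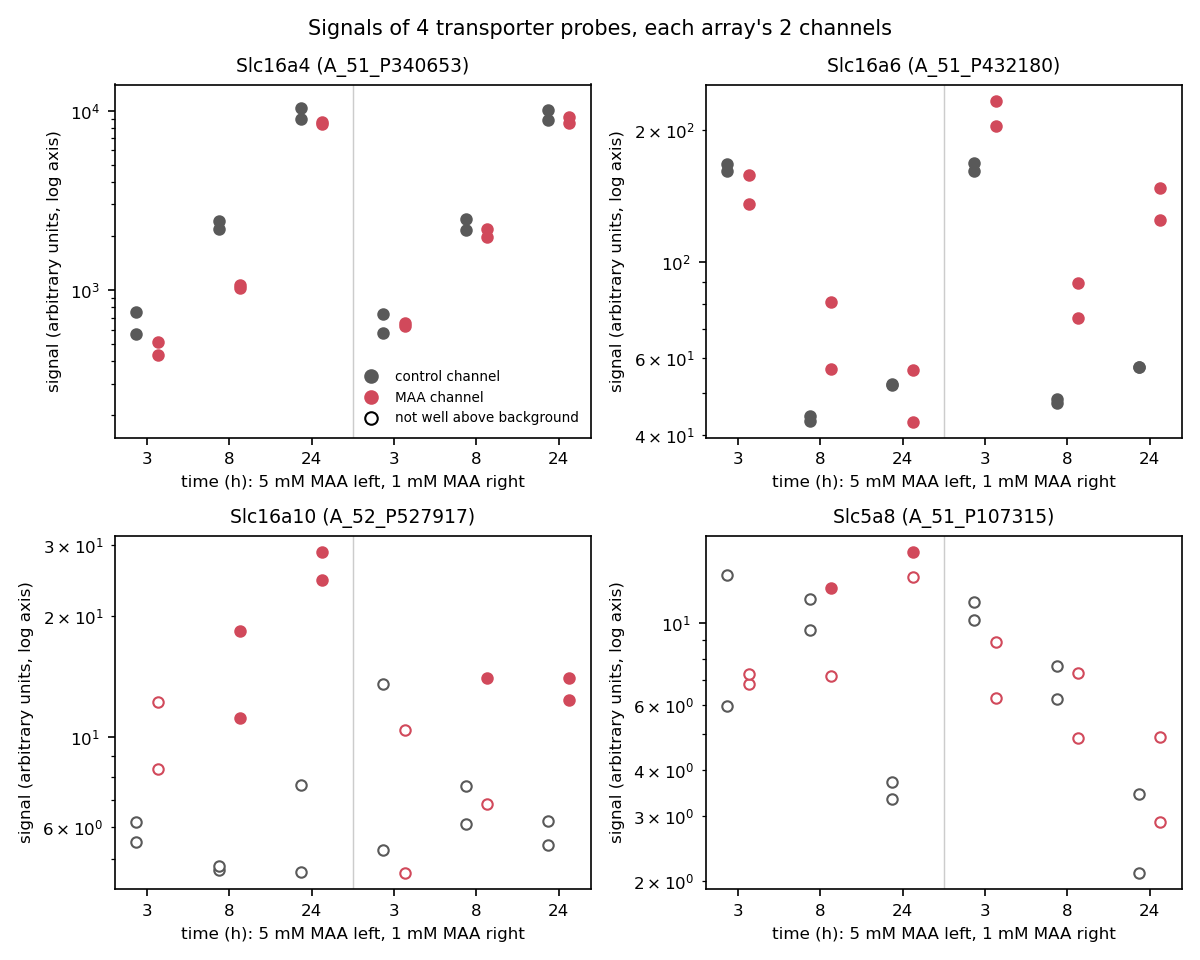
Signals (log axis, arbitrary units) of 4 member probes in the control and MAA channels of each array, by time and concentration (open symbols are channels not well above background). Both Slc16a4 MAA signals at 5 mM for 8 h lie below the controls, Slc16a6 MAA signals at 1 mM for 24 h (125 and 147) lie above controls of 57.4 and 57.5, and all Slc16a10 and Slc5a8 control channels are open.

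The remaining members gave no call at 5 mM. Slc16a9 had means of -0.51, -0.34 and -0.29 at 3, 8 and 24 h with adjusted p of 0.0523 to 0.219. All 6 of its single-array ratios at 5 mM were below 0, from -0.65 to -0.07. Slc16a13 had ratios of -0.46 and 2.03 on the pair of arrays at 8 h, with MAA signals of 31.0 and 168 beside controls of 42.5 and 41.0, so its mean of 0.79 (SE 0.46, adjusted p = 0.276) rests on 1 array. At the other 5 conditions its means ran from -0.45 to 0.27.

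At 1 mM, 0, 3 and 2 of the 14 member probes were called at 3, 8 and 24 h, beside 1.95%, 2.37% and 4.68% of all probes, and 4 of the 14 at any time, beside 6.87%. An adjusted p under 0.05 was reached by 0, 3 and 2 member probes, beside 4.62%, 5.53% and 11.3% of all probes. Slc16a6 was called at 8 and 24 h, Slc16a10 at 24 h, and Slc16a7 and Slc16a9 were called lower at 8 h. At 3 h, 1 member probe had an unadjusted p under 0.05, as did 16.8% of all probes.

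Slc16a6 encodes MCT7, which is linked to ketone body export from liver cells. At 1 mM, probe A_51_P432180 gave log2 ratios of 0.47 and 0.34 at 3 h, 0.88 and 0.64 at 8 h and 1.36 and 1.12 at 24 h. Each of the 6 arrays was above 0. The 24 h mean was 1.24 (SE 0.15, adjusted p = 0.00322), or 2.36-fold, from MAA signals of 147 and 125 and control signals of 57.5 and 57.4. The 8 h mean was 0.76 (SE 0.15, adjusted p = 0.0315), or 1.70-fold, and its call was lost without either 1 mM 8 h array (adjusted p = 0.303 and 0.165). At 5 mM the same probe gave -0.08 and -0.25 at 3 h, 0.90 and 0.36 at 8 h (mean 0.63, adjusted p = 0.0154) and 0.12 and -0.29 at 24 h. Probe A_52_P579933 measures another transcript accession of the gene and was above background in 1 MAA channel alone, at 1 mM for 24 h, where its ratios were 1.77 and 0.94 (mean 1.35, SE 0.60, adjusted p = 0.214).

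Slc16a10 at 1 mM for 24 h gave 0.99 and 1.37 at probe A_52_P527917, a mean of 1.18 (SE 0.26, adjusted p = 0.0269) and at least 1.57-fold, with both MAA channels above background. Leaving out either 1 mM 24 h array ended the call (0.99 and adjusted p = 0.261 without replicate 2, 1.37 and adjusted p = 0.138 without replicate 1). Slc16a9 at 1 mM for 8 h gave -0.41 and -0.88, a mean of -0.64 or 1.56-fold lower, with an adjusted p of 0.0601, and the call was lost in 7 of the 12 fits that each left out an array. Without 1 mM 8 h replicate 2 its value was -0.41 (adjusted p = 0.451). The Slc5a8 arrays at 1 mM for 24 h disagreed, at 1.23 and -0.26.

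Whether the concentrations differed was tested directly as 5 mM minus 1 mM at each time. The adjusted p was under 0.05 for 0 member probes at 3 h, for 2 at 8 h and for 1 at 24 h, where 3.4%, 10.1% and 8.41% of all probes passed. At 3 h, 6 member probes, 3 of them of Slc16a1, had an unadjusted p under 0.05, as did 15.6% of all probes. Slc16a4 was lower at 5 mM at 8 h by both probes. The 1 mM arrays gave -0.13 and -0.18 at A_51_P340653 where those at 5 mM gave -1.10 and -1.18, and each replicate's 2 arrays lay on 1 slide. The difference was -0.98 (SE 0.22, adjusted p = 0.0300) there and -0.81 (SE 0.19, adjusted p = 0.0355) at A_52_P598885. Slc16a6 differed at 24 h by -1.33 (SE 0.21, adjusted p = 0.0116), that is, the ratio was lower at the higher concentration. On the slide that held replicate 1 of both, the ratios were 0.12 and 1.36. With normexp background correction the difference was -0.55 (adjusted p = 0.101) and did not pass.

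With control channels below background throughout, the ratios of Slc16a10 and Slc5a8 have no settled size, and their concentration differences are given only as fitted. For Slc16a10 the ratio at A_52_P527917 was higher at 5 mM than at 1 mM by 1.08, 1.06 and 0.98 at 3, 8 and 24 h, with SE of 0.36 and adjusted p of 0.185, 0.121 and 0.164. For Slc5a8 at 24 h the difference was 1.55 (SE 0.51, adjusted p = 0.120). These differences did not pass, although Slc5a8 was called at 5 mM and not at 1 mM. The Slc16a4 differences lost significance in 8 of the 12 fits that each left out an array, with the highest adjusted p at 0.146 and 0.166, and that of Slc16a6 in 3. The arrays whose loss ended the Slc16a4 calls were those of 8 h and 24 h at both concentrations, and for Slc16a6 they were 5 mM 24 h replicate 2 (-1.12, adjusted p = 0.0784) and either 1 mM 24 h array (-1.21 and -1.45, adjusted p = 0.0819 and 0.0555).

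**Figure D4:**
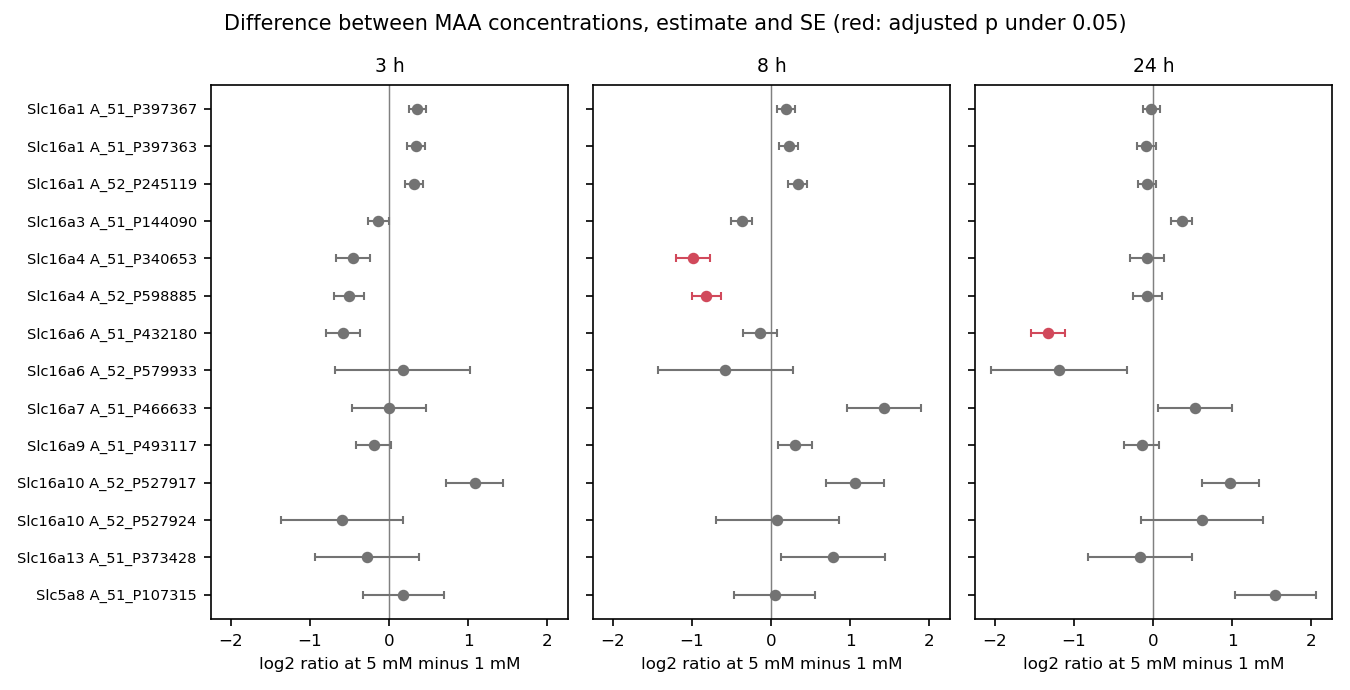
Log2 ratio at 5 mM minus that at 1 mM for each member probe at 3, 8 and 24 h (points are limma estimates, bars are SE, red marks an adjusted p under 0.05 over all probes). The 3 red points are both Slc16a4 probes at 8 h, at -0.98 and -0.81, and Slc16a6 at 24 h, at -1.33, and the points of Slc16a7, Slc16a10, Slc5a8 and A_52_P579933 rest on control channels below background.

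Genes around the transporters were read by the probe with the highest mean signal. Bsg, the partner that brings Slc16a1 and Slc16a3 proteins to the membrane, had log2 ratios of 0.72 and 0.87 at 5 mM for 24 h (mean 0.79, SE 0.10, adjusted p = 0.000981), or 1.73-fold. Emb, the other partner, had 5 mM means of -0.27, -0.27 and 0.27 at 3, 8 and 24 h, with adjusted p of 0.0402, 0.0311 and 0.0318. Centring each array on its median took these to 0.410, 0.0798 and 0.123, and fitting the 5 mM arrays alone to 0.151, 0.120 and 0.120. A second Emb probe, A_52_P10622, had means of -0.26, -0.23 and 0.17 and did not pass (adjusted p of 0.261, 0.294 and 0.460). Of the other 7 carriers, 6 had a probe and 1 was called: Slc16a11 at 5 mM for 24 h, with 1.04 and 1.56 (mean 1.30, SE 0.24, adjusted p = 0.00698). The Slc16a11 call was lost without 5 mM 24 h replicate 2 (1.04) and with normexp (0.25, adjusted p = 0.170). Its control signals fell from 145 to 195 at 3 h to 7.03 to 14.0 at 24 h, and its spot on 1 mM 24 h replicate 1 was excluded, which leaves 1 array there.

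Of 4 lactate dehydrogenase genes, which interconvert lactate and pyruvate, Ldhc, the sperm form, was called. Its MAA signals at 5 mM for 24 h were 25.5 and 28.4 and its controls 1.47 and 2.57, a mean log2 ratio of 3.79 (SE 0.24, adjusted p = 4.64e-05) and at least 3.19-fold. At 1 mM for 24 h the mean was 2.12 (adjusted p = 0.00250), with 1 MAA channel above background and at least 1.09-fold. With normexp the 24 h means of Ldhc were 0.60 at 5 mM (adjusted p = 7.93e-05) and 0.11 at 1 mM (adjusted p = 0.470), and neither was called. Ldha was not called in any condition (means -0.14 to 0.31, lowest adjusted p = 0.160), and Ldhb had -0.34 at 5 mM for 24 h (adjusted p = 0.00254). Of 15 measured glycolysis genes, 8 had an adjusted p under 0.05 and a higher value and 0 a lower one at 5 mM for 24 h, with a median log2 ratio of 0.48 beside 0.03 for all probes, of which 30.4% passed. At 3 h 3 were higher and 2 lower by this measure, and at 8 h 3 were higher and 4 lower, where 24% and 30.4% of all probes passed. At 24 h, 2 passed 2-fold: Hk1, a hexokinase, at 1.28 (SE 0.09) and Pfkp, a phosphofructokinase subunit, at 1.52 (SE 0.06), with adjusted p of 6.55e-05 and 8.04e-06. Hk1 was also called at 8 h (1.03, adjusted p = 0.000138), where centring put it at 1.00 and the fit without 5 mM 8 h replicate 2 at 0.90, both short of the threshold. At 1 mM for 24 h, Pfkp (0.65), Aldoc (0.62) and Eno2 (0.59) were called higher. The Aldoc call was lost without either 1 mM 24 h array (adjusted p = 0.106 and 0.108), the Eno2 call without 1 mM 24 h replicate 2 (0.56, adjusted p = 0.0754), and both with normexp (0.57 and 0.54, short of 1.5-fold).

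Acss2, which makes acetyl-CoA from acetate, rose at both concentrations. Its log2 ratios at 5 mM were 1.52 and 1.65 at 8 h and 1.77 and 1.92 at 24 h, with means of 1.59 and 1.84 (SE 0.08, adjusted p = 1.95e-05 and 1.41e-05). At 1 mM its means were 0.59 and 0.80 at these times. The 1 mM 8 h call was lost with normexp (0.57), with the deposited ratios (0.58) and without 1 mM 8 h replicate 2 (0.51). A second probe, A_52_P566718, was called at the same 5 mM times and at 1 mM for 24 h, but not at 1 mM for 8 h (0.51). Acss2 was the only one of 6 acetate and ketone body genes called at 24 h, and Bdh1, called at 5 mM for 8 h, had neither channel above background. Of 9 measured genes for the entry of pyruvate into mitochondria, 0 were called by limma in any condition. At 5 mM for 8 h, 5 of the 9 had an adjusted p under 0.05 with a higher value and 2 with a lower one, beside 30.4% of all probes in either direction.

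Slc16a4, by A_51_P340653, had the largest mean absolute log2 ratio at 5 mM among member probes above background on all 12 arrays, and its pattern was set beside those of 24743 probes above background in at least 1 channel on every array. The closest genes by Pearson's r of the log2 ratios were Armcx3 (0.978), Trib2 (0.972), 3110040N11Rik (0.970), Washc3 (0.968) and Fundc1 (0.961). At 5 mM for 8 h their means were -0.46, -0.75, -0.53, -0.65 and -0.83, beside -1.14 for Slc16a4. These r values are descriptions across 12 arrays that share slides and control times, with the genes picked for the highest r.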

How the data were processed

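The authors hybridised 12 Agilent mouse arrays and read them with Feature Extraction 9.5.3.1, named in the submitters' notes. The deposited intensity values are that program's background-subtracted signals, dye-normalized by linear and LOWESS scaling per the file headers. The deposited log10 ratios, taken as MAA over control, were used as an alternative.

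Control spots and outlier spots were excluded, spots of a probe were averaged, and log2 ratios were turned to MAA over control. Probes carry accessions, and unversioned RefSeq accessions gave the symbols. For single-channel signals the arrays were scaled with limma's Aquantile method. Ratios were tested over all probes in a single fit of 6 condition means (limma 3.58.1 in R 4.3.3, lmFit and eBayes, 6 residual df and 1.52 prior df), with Benjamini-Hochberg adjustment. The call rule keeps the study's p and fold thresholds, but its error model was not run. With 2 pools a condition, p-values rest on the spread between the arrays of a condition, shared over all 6 conditions. In that spread, pool and dye orientation cannot be told apart. By the rule for named genes, the text names every member, pathway genes called in any condition, Bsg, Emb, Ldha and Ldhb, and the 5 genes most like Slc16a4. The members and lists were chosen with earlier results of these data known. Pathway genes were read by 1 probe each, with a second probe given for Emb and Acss2. Alternatives were normexp correction with an offset of 50, the deposited ratios, median centring, exclusion of dim probes, retained outlier spots, replicate and slide blocks, 6 arrays of one concentration and leaving out each array. The fit was tested on simulated data. Figures were drawn with matplotlib 3.10.9.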

Additional observations from a re-analysis of the deposited data

Results flagged for a closer look

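Control signals stood apart in 2 of 42 sets of 4 channels, where chance gives about 1 in 20. Probe A_52_P579933 of Slc16a6, never above background in control cells, read 2.16, 2.67, 2.75 and 2.78 at 8 h, and the gap to the lowest was 0.835 of the range on the log2 scale. Probe A_52_P527917 of Slc16a10 read 5.25, 5.50, 6.16 and 13.6 at 3 h, a gap of 0.831 of the range, the highest being 1 mM replicate 2.

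The MAA effect differed between concentrations or times, by limma's test of the difference, for 3 transporters whose controls were above background. At 5 mM, Slc16a10 (24 h against 3 h) and Slc5a8 (24 h against 8 h and 3 h) also passed, but with controls below background. Slc16a4 at 8 h was lower at 5 mM than at 1 mM by -0.98 and -0.81 at its probes, and its 24 h ratio at 5 mM lay above that at 8 h by 0.97 and 0.79. Slc16a6 at 24 h was lower at 5 mM than at 1 mM by -1.33. For Slc16a1 the 5 mM ratio at 24 h differed from that at 8 h by -0.45 at A_51_P397367, and from that at 3 h by -0.49 at this probe and -0.49 at A_51_P397363. Leaving out 1 array ended the Slc16a4 differences in 8 to 10 of 12 fits, that of Slc16a6 in 3, and those of Slc16a1 in 10, 3 and 4.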

How the results depend on the processing

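Apart from counts of probes, the alternatives were run on 49 results. These were calls of members and pathway genes, adjusted p-values under 0.05 of members, Bsg, Emb and Ldhb, and member differences that passed. Other pathway values with an adjusted p under 0.05 were not included. None of the 49 changed sign. Many estimates could not: leaving out an array of another condition, blocking on the replicate or fitting each concentration alone returns the same value. Over 995 pairs of result and setting, 784 still met the rule by which the result was named and 211 did not. For called probes that rule holds the p and fold thresholds, except in the setting without a fold threshold. For other results it is an adjusted p under 0.05. A miss can come from the fold alone: with normexp, Hk1 at 5 mM for 8 h had 0.93 (adjusted p = 5.73e-05). With an adjusted p under 0.05 and no threshold on the fold, 3 member probes in place of 0 passed at 5 mM for 3 h and 7 in place of 2 at 8 h. With normexp, which adds 50 to both channels, 1 was called at 8 h, 0 in place of 2 at 24 h and 0 in place of 4 at 1 mM, where limma's unadjusted p under 0.05 held for 8, 3 and 6 probes. Under normexp Slc16a10 at 5 mM had 0.24 at 8 h and 0.42 at 24 h, and Slc5a8 0.19 at 24 h. Slc16a6 at 1 mM for 24 h had 0.52, so the folds of these probes rest on the background handling. The Slc16a6 probe was above background in all 12 control and all 12 MAA channels, and its limma adjusted p under normexp was 0.0434. Without dim probes 1 was called at 24 h. With slide as a block 2 probes in place of 4 were called at 1 mM. Time differences fell from 6 probes to 2 with median centring and to 1 with only the 5 mM arrays, and the 6 include Slc16a10 and Slc5a8, whose controls were below background. Leaving out 1 array gave 0 to 0 called probes at 5 mM for 3 h, 1 to 3 at 8 h, 1 to 2 at 24 h and 2 to 4 at 1 mM, and 0 to 3 probes with a concentration and 0 to 5 with a time difference.

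Deviations from the condition means correlated between same-numbered arrays by 0.075 to 0.515 (median 0.375, 15 pairs), and the number also marks the dye orientation, which same-numbered arrays share. Nothing in the labels ties the cultures of a number to each other, so the number was not used as a pairing in the main fit. With the replicate as a block, 0, 2 and 2 member probes were called at 5 mM and 4 at 1 mM, and 4 probes in place of 3 had a concentration difference and 9 in place of 6 a time difference.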
